A study of Homo sapiens with 3 samples.

Results

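The microRNA genes with signal were analysed in the RNA-seq data of 293T cells (HEK293T, a human embryonic kidney cell line) in which the LINE-1 (L1) antisense promoter was activated. They were chosen by name, as gene names that start with MIR and a digit or with MIRLET, host gene and antisense names left out, and by measured values, as an FPKM (mapped fragments scaled to gene length and library size) of at least 1 in 1 or more of the 3 libraries. Of 1203 microRNA gene names, 54 (4.49%) met this rule, as against 13122 of the 22081 other gene names (59.4%). In all conditions dCas9-VP64, the transcriptional activator VP64 carried by a Cas9 that no longer cuts DNA, was transiently expressed. They also expressed a mock sgRNA (mock), the sgRNA sgL1ASP #1 or the sgRNA sgL1ASP #3, the guides being directed to the L1 antisense promoter. The question was which genes responded to the activation of this promoter. Each condition had 1 library, so no spread between replicates is known for any difference, and neither a p-value nor an SD can be given.

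MicroRNAs are RNAs of about 22 bases that guide Argonaute proteins to messenger RNAs, which are then repressed. They are cut out of long transcripts. DROSHA and DGCR8 release a hairpin in the nucleus, XPO5 carries it to the cytoplasm, and DICER1 cuts it to a duplex of which 1 strand is loaded. Bases 2 to 8 of that strand, the seed, pair with the target. The libraries were made with a stranded mRNA kit, which takes up RNA with poly(A) tails, and sequenced in 75-base reads, so a mature microRNA is too short to be read. A value of a microRNA gene in these files therefore stands for longer RNA that covers its hairpin, and not for the mature microRNA.

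RefSeq (GRCh38.p14) held mature sequences for 49 of the 54 genes, 71 sequences in all with 71 different seeds, so no seed was shared between the genes. MIR3648, MIR3960, MIR612, MIR636 and MIR641 had no mature entry. Sequences are shown 5′ to 3′ with the seed in capitals. They are those of MIR622 and MIR5047, which had the most recovered reads, and of genes that differed most between libraries. Those of MIR3064, the highest in FPKM, are shown as well, although its reads could not be recovered.
miR-622: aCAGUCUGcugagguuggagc
miR-5047: uUGCAGCUgcgguuguaaggu
miR-3064-5p: uCUGGCUGuuguggugugcaa
miR-3064-3p: uUGCCACAcugcaacaccuuaca
miR-25-3p: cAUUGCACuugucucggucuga
miR-25-5p: aGGCGGAGacuugggcaauug
miR-1248: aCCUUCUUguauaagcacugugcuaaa
miR-600: aCUUACAGacaagagccuugcuc
miR-922: gCAGCAGAgaauaggacuacguc
miR-1182: gAGGGUCUugggagggaugugac
miR-4321: uUAGCGGUggaccgcccugcg
The seed of miR-25-3p was the most widely shared of these, being held by 6 mature names in RefSeq, among them miR-92a-3p, miR-363-3p and miR-32-5p. The seed of miR-590-5p, from another of the 54 genes, is that of miR-21-5p, while MIR21 itself was at 0 in every library. The seed of miR-221-3p is that of miR-222-3p, the product of the neighbouring hairpin.

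The rule's FPKM threshold had no effect on the choice. The other 1149 microRNA gene names were listed at 0 in every library, and 0 names lay above 0 and under 1. The genes just inside were MIR762, with FPKM 5.21 with sgL1ASP #1 and 0 in the other libraries, and MIR3648, with 5.83 in mock, 0 with sgL1ASP #1 and 7.01 with sgL1ASP #3. FPKM was above 0 for 31 of the genes in mock, 32 with sgL1ASP #1 and 25 with sgL1ASP #3. Most of the genes appeared in part of the libraries. Of the 54, 29 were above 0 in exactly 1 library, 16 in 2 and 9 in all 3. The 9 were MIR3064, MIR622, MIR5047, MIR25, MIR641, MIR922, MIR600, MIR1248 and MIR1182. Being listed at 0 in 1 or more libraries was found for 45 of the 54, and for 1.18% of all 13176 genes with FPKM of at least 1 in any library. Of the genes seen in 1 library, 8 were seen in mock, 14 with sgL1ASP #1 and 7 with sgL1ASP #3. Except for MIR3916, each of these rested on 1 read or less by the conversion given below. The matching shares of all genes by library were not taken. MIR637 and MIR3911 were at 0 in mock alone.

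**Figure D1:**
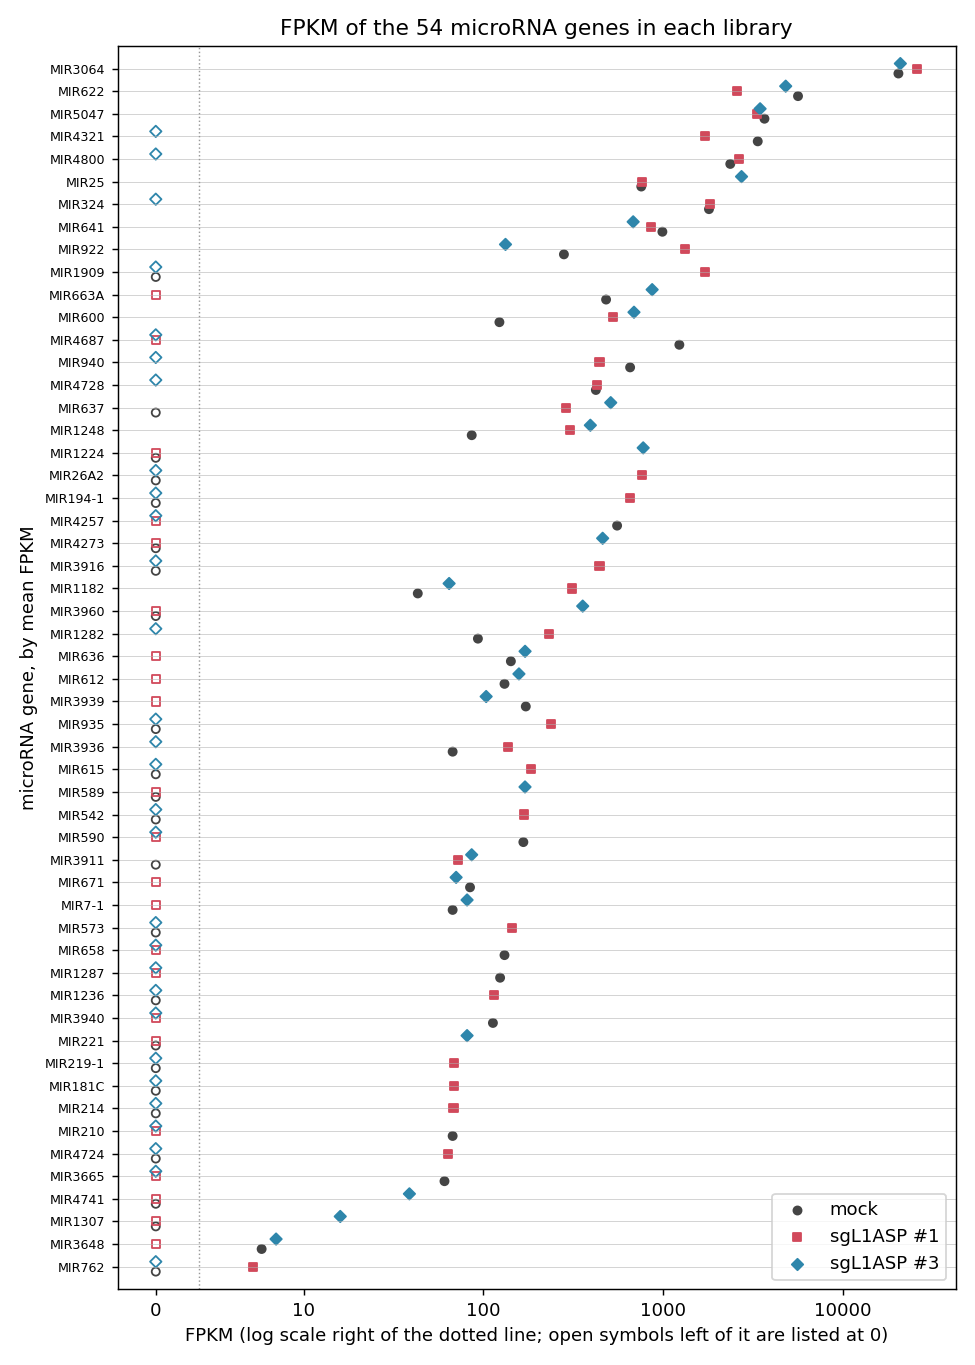
FPKM (log scale, with values listed at 0 drawn as open symbols at the left) of each of the 54 microRNA genes in mock (circles), sgL1ASP #1 (squares) and sgL1ASP #3 (diamonds), with 1 library per condition. MIR3064 was highest in every library, at 20424 to 26055, and 45 of the 54 genes had an open symbol in 1 or more libraries.

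The values were high for the few reads behind them. FPKM divides by the number of places a fragment can take in a gene, and hairpins are about as long as the shortest fragments. Among short RNA genes other than microRNAs, the largest group of values (25 of 113) shared 1 common worth, taken as that of 1 read, when fragments were set to at least 73 bases, with the mean of 200 and the SD of 80 bases that Cuffdiff assumes for single-end reads. By this measure 1 read in the mock library was worth an FPKM of 1683 for a hairpin of 80 bases, 67.4 for 110 bases, 24.97-fold less, and 5.83 for 180 bases. The worth of 1 read against mock was 1.01 with sgL1ASP #1 and 1.20 with sgL1ASP #3. The implied library sizes were 11100000 fragments in mock, 11000000 with sgL1ASP #1 and 9260000 with sgL1ASP #3. This conversion was set after the values were seen. Of the 88 values above 0 of the microRNA genes, which did not enter its making, 83 could be converted, the others being those of MIR3064 and MIR4728, whose hairpins of 67 bases are shorter than that fragment and whose FPKM it does not account for.

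In reads, most of the genes were at the edge of detection. Of the 83 values, 58 lay within 1% of a whole number of reads, 36 of them at exactly 1 read, 9 at 2, 4 at 3 and 9 at 4 or more. Another 15 values were under 1 read and 10 were above 1 and not whole. Of the 52 genes converted, 34 had at most 1 read in every library, 15 had more than 1 and under 5 in their highest library, and 3 reached 5 reads. These 3 were MIR622, MIR5047 and MIR641. All convertible genes together held 96.1 reads in mock, 82.1 with sgL1ASP #1 and 77.9 with sgL1ASP #3, and 37.1, 43.1 and 33.9 without MIR622 and MIR5047. In FPKM the 54 genes held 7.15% of the summed values of all genes in mock, 7.33% with sgL1ASP #1 and 5.62% with sgL1ASP #3, and MIR3064 alone held 3.29%, 3.94% and 3.11%. A count of 0 reads allows up to 3 by counting error alone. For 71 of 73 listed zeros of convertible genes, 3 reads would have been worth at least as much as the gene's highest FPKM in any library, the exceptions being MIR637 in mock and MIR663A with sgL1ASP #1.

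**Figure D2:**
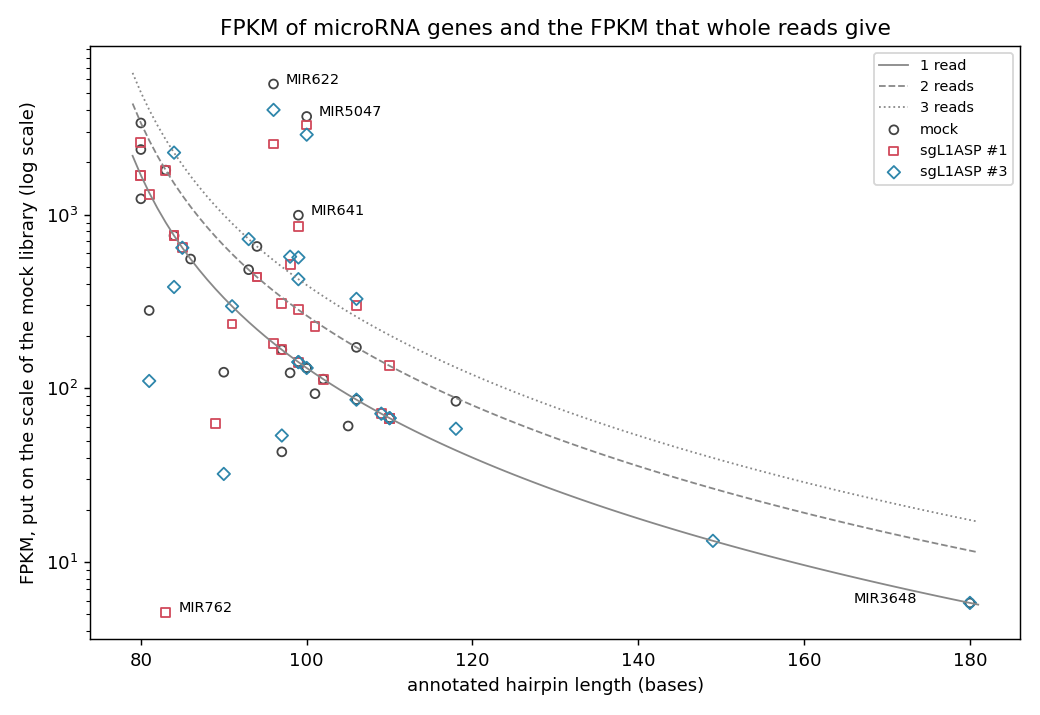
FPKM (log scale, with the values of the guide libraries divided by their 1-read worth against mock) against annotated hairpin length in bases for the values above 0 of the 52 convertible microRNA genes. Lines give the FPKM of 1, 2 and 3 reads in mock, from 1683 for 1 read at 80 bases to 5.83 at 180 bases. On the line of 1 read lie 36 values. MIR622, MIR5047 and MIR641 lie above all 3 lines in every library, and MIR1248 and MIR600 do so with both guides.

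MIR622, MIR5047 and MIR641 were the genes whose reads allow an interval of use. MIR622 (96 bases, hg19 chr13:90883436-90883531, plus strand) had FPKM 5639 in mock, 2580 with sgL1ASP #1 and 4816 with sgL1ASP #3, from 31, 14 and 22 reads. It was lowest with sgL1ASP #1. The FPKM ratio of sgL1ASP #1 to mock was 0.458, with an exact 95% counting interval of 0.225 to 0.886, and of the 9 such intervals of these genes it was the only 1 that did not hold 1. The ratio of sgL1ASP #3 to mock was 0.854 (0.471 to 1.52), and that of sgL1ASP #1 to sgL1ASP #3 was 0.536 (0.253 to 1.10). The intervals cover counting error between these libraries only. The hairpin lies in an exon of KRT18P27, a pseudogene of keratin 18, and 91 of its 96 bases equal those of a KRT18 transcript. FPKM of KRT18 itself was 60.3 in mock, 59.3 with sgL1ASP #1 and 60.6 with sgL1ASP #3, without the drop. Whether reads of KRT18 or of other keratin 18 copies were placed on this hairpin was not tested, so its level is uncertain.

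MIR5047 (100 bases, chr17:62497332-62497431, minus strand) had FPKM 3668 in mock, 3318 with sgL1ASP #1 and 3468 with sgL1ASP #3, from 28, 25 and 22 reads. Its values were close in the 3 libraries. The ratio to mock was 0.905 (0.506 to 1.61) with sgL1ASP #1 and 0.945 (0.515 to 1.71) with sgL1ASP #3. It lies in an exon of DDX5, the RNA helicase that assists DROSHA. MIR3064, 441 bases away in the same gene (chr17:62496891-62496957), lies in a DDX5 exon as well. These were the only microRNA genes of the 54 that neighboured each other. MIR3064 had FPKM 20424 in mock, 26055 with sgL1ASP #1 and 20936 with sgL1ASP #3, the ratios to mock being 1.28 and 1.03. Its reads could not be recovered. DDX5 had FPKM 195 in mock, 188 with sgL1ASP #1 and 191 with sgL1ASP #3, far under the values of the hairpins in its exons.

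MIR641 (99 bases, chr19:40788450-40788548, minus strand) lies in an intron of AKT2, a kinase of insulin signalling. It had FPKM 991 in mock, 861 with sgL1ASP #1 and 682 with sgL1ASP #3, from 7, 6 and 4 reads. The ratio to mock was 0.868 (0.241 to 3.02) with sgL1ASP #1 and 0.688 (0.148 to 2.70) with sgL1ASP #3. FPKM of AKT2 was 45.6, 44.0 and 47.2 in mock, sgL1ASP #1 and sgL1ASP #3.

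**Figure D3:**
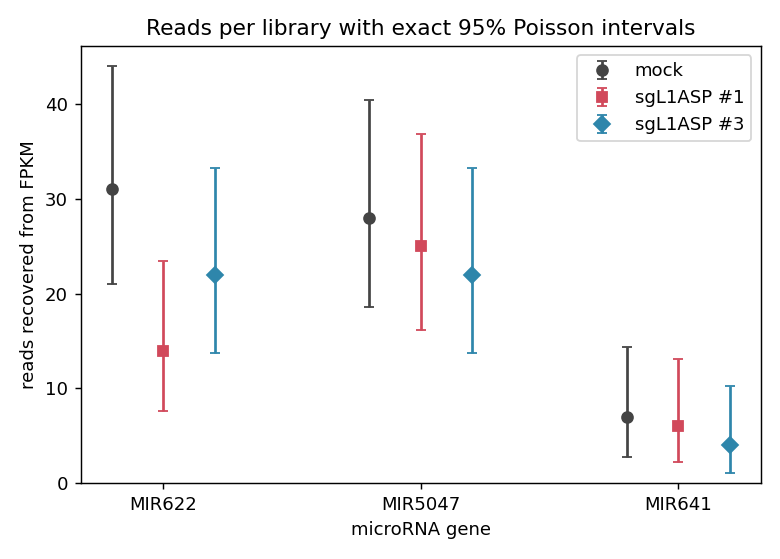
Reads recovered from FPKM for MIR622, MIR5047 and MIR641 in mock, sgL1ASP #1 and sgL1ASP #3, with exact 95% Poisson intervals as bars, which cover counting error only. MIR622 went from 31 reads in mock to 14 with sgL1ASP #1, and the bars of the libraries overlap for each gene.

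A change was taken as more than 1.5-fold between FPKM values above 0 in both libraries, with no pseudocount, and as in the choice of the genes the values are a description. All genes are here those with FPKM of at least 1 in any library and values above 0 in the libraries compared. With sgL1ASP #1 and mock, 16 of the 54 genes had both values, 6 being above mock and 2 below, while of all genes 2.11% were above and 2.08% below. With sgL1ASP #3 and mock, 4 of 16 were above and 2 below, while of all genes 2.20% were above and 2.32% below. Between the guides, 2 of 11 were above and 3 below in sgL1ASP #1 relative to sgL1ASP #3, while of all genes 2.28% were above and 2.18% below. The shares were thus above those of all genes in every direction at once. The 63 other genes under 200 bases had high shares as well. Past 1.5-fold in either direction were 48.4% of those with values in sgL1ASP #1 and mock, 61.5% in sgL1ASP #3 and mock and 62.1% between the guides, and 63.5% of the 63 were listed at 0 in 1 or more libraries. The median log2 ratio of the microRNA genes was 0.09 with sgL1ASP #1 (n = 16), 0.26 with sgL1ASP #3 (n = 16) and -0.25 between the guides (n = 11), against 0.00, 0.00 and -0.00 over all genes. Genes with equal reads had such ratios as well, since a read is worth more with sgL1ASP #3. MIR636, MIR612, MIR7-1 and MIR3648, with 1 read in mock and 1 with sgL1ASP #3, had 0.26 to 0.27. MIR3911, with 1 read with each guide, had -0.25. The comparisons with mock share the mock library.

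MIR1248 and MIR600 were above mock with both guides, 2 of the 9 genes with values in all 3 libraries, where the share of all genes was 0.914%. No gene of the 9 was below mock with both guides, where the share of all genes was 0.684%. When listed zeros were counted, the balance turned to 4 genes above and 10 below mock with both guides. Of the 10, 8 were above 0 in mock alone, each at 1 read or less. The share of all genes with zeros counted was not taken. MIR1248 (106 bases, chr3:186504461-186504566, plus strand) had FPKM 86.1 in mock, 303 with sgL1ASP #1 and 394 with sgL1ASP #3. This was 1 read in mock, 3.47 with sgL1ASP #1 and 3.80 with sgL1ASP #3. It lies in an exon of EIF4A2, a helicase of translation initiation, and 103 of its 106 bases are also part of SNORA81, a small nucleolar RNA gene of 178 bases. SNORA81 was listed at 0 in mock and had FPKM 28.0 with sgL1ASP #1 and 30.8 with sgL1ASP #3, so both genes at this place were lowest in mock. EIF4A2 had FPKM 110 in mock, 122 with sgL1ASP #1 and 120 with sgL1ASP #3. Reads of the snoRNA and of the hairpin cannot be told apart in these values.

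MIR600 (98 bases, chr9:125873825-125873922, minus strand) had FPKM 123 in mock, 525 with sgL1ASP #1 and 689 with sgL1ASP #3, which was 0.80, 3.37 and 3.73 reads. Both guide libraries were above mock, by fewer than 3 reads. Its host MIR600HG, in whose exon it lies, had FPKM 4.17 in mock, 4.13 with sgL1ASP #1 and 4.09 with sgL1ASP #3.

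MIR922 and MIR1182 were highest with sgL1ASP #1. MIR922 (81 bases, chr3:197401367-197401447, minus strand), in an exon of the autophagy regulator RUBCN, had FPKM 281 in mock, 1317 with sgL1ASP #1 and 133 with sgL1ASP #3. It was above mock with sgL1ASP #1 (ratio 4.70) and below it with sgL1ASP #3 (ratio 0.473). In reads this was 0.21, 0.97 and 0.08, none of the libraries reaching 1 read. RUBCN (listed as KIAA0226) had FPKM 4.62, 4.56 and 4.43 in mock, sgL1ASP #1 and sgL1ASP #3. MIR1182 (97 bases, chr1:231155574-231155670, minus strand), in an exon of FAM89A, had FPKM 43.1 in mock, 313 with sgL1ASP #1 and 64.4 with sgL1ASP #3. This was 0.26, 1.85 and 0.32 reads. The ratio of sgL1ASP #3 to mock was 1.49 and that of sgL1ASP #1 to sgL1ASP #3 was 4.85. The stepwise rule of the study asks for sgL1ASP #3 above mock and sgL1ASP #1 above sgL1ASP #3, both by over 1.5-fold. It was passed by 0 of the 9 genes with values in all libraries. Of all genes with FPKM of at least 1 in any library and above 0 in all 3, it was passed by 18 of 13021 (0.138%). The study's list holds many more genes than these 18. The study states its rule without such an FPKM filter, so the 2 numbers are not over the same genes. The reason for the difference was not tested. MIR1182 and MIR762 are nonetheless named in the study's list of upregulated genes. In the FPKM used here MIR1182 missed the first step, and MIR762 had no ratio because it was at 0 in mock and with sgL1ASP #3. FAM89A had FPKM 31.2, 32.1 and 35.2.

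MIR25 (84 bases, chr7:99691183-99691266, minus strand) was the highest gene in an intron. It lies in MCM7, a subunit of the replicative helicase, together with MIR93 and MIR106B of the same cluster, which is known to promote proliferation. FPKM was 756 in mock, 766 with sgL1ASP #1 and 2734 with sgL1ASP #3. These were 1, 1 and 3 reads, and the ratio of sgL1ASP #3 to mock had a counting interval of 0.290 to 190. MIR93 and MIR106B were at 0 in all libraries. FPKM of MCM7 was 248 in mock, 246 with sgL1ASP #1 and 248 with sgL1ASP #3.

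The remaining genes past 1.5-fold rested on 1 to 3 reads or on parts of reads. MIR4321, in an exon of the hormone gene AMH, had FPKM 3365 in mock, 1705 with sgL1ASP #1 and 0 with sgL1ASP #3, that is 2, 1 and 0 reads. The ratio of sgL1ASP #1 to mock was 0.507 (counting interval 0.00859 to 9.73), and the 0 with sgL1ASP #3 allows up to 6074. MIR3936 had 1 read in mock and 2 with sgL1ASP #1, a ratio of 2.03 (0.105 to 120). MIR3939 had 2 reads in mock and 1 with sgL1ASP #3, a ratio of 0.602 (0.0102 to 11.6). MIR663A had 2 reads in mock, 0 with sgL1ASP #1 and 3 with sgL1ASP #3, the ratio of sgL1ASP #3 to mock being 1.81 (0.207 to 21.6). MIR637 had 0, 2 and 3 reads in mock, sgL1ASP #1 and sgL1ASP #3, the ratio between the guides being 0.561 (0.0469 to 4.90). MIR1282, antisense to an exon of SERF2, had FPKM 93.2 in mock, 231 with sgL1ASP #1 and 0 with sgL1ASP #3. For every whole-read gene of this group the interval held 1.

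High values also stood beside zeros. MIR4800, in an exon of MXD4, had FPKM 2367 in mock, 2646 with sgL1ASP #1 and 0 with sgL1ASP #3. MIR324, on the strand opposite to the fatty acid oxidation gene ACADVL, had 1802, 1824 and 0, from 2, 2 and 0 reads. MIR1909, in an exon of REXO1, had 1705 with sgL1ASP #1 alone, which is 1 read. MIR4687, in an exon of the calcium sensor gene STIM1, had 1232 in mock alone, which is 0.73 of a read. Each of these hairpins was 80 to 83 bases long, where a read is worth most. The hosts moved little. MXD4 had FPKM 26.5, 28.6 and 31.0, REXO1 had 13.2, 13.6 and 12.6, and STIM1 had 17.2, 17.9 and 18.4 in mock, sgL1ASP #1 and sgL1ASP #3. MIR762, within the host MIR762HG and antisense to BCL7C, had 0.006 of a read with sgL1ASP #1, the lowest of all.

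Of 48 names in microRNA families known for abundance or for control of growth, or linked to ribosomal DNA, 3 had signal (6.25%), as against 4.49% of all microRNA gene names. Of the 12 let-7 genes, which restrain proliferation, 0 had signal, as had 0 of 6 genes of the miR-17-92 cluster, 0 of 6 of miR-106a-363, 0 of 2 of miR-128, 0 of 5 of miR-10 and miR-196, 0 of 3 of miR-34, which p53 induces, and 0 of 5 of miR-200. MIR21 and MIR155 were at 0. The families with signal were miR-106b-25 with 1 of 3 (MIR25) and the group linked to ribosomal DNA with 2 of 4 (MIR663A and MIR3648). Single reads came from MIR210, the hypoxia-induced microRNA gene, in mock, MIR221 with sgL1ASP #3, and MIR26A2, MIR181C and MIR214 with sgL1ASP #1. Within 10000 bases of the genes lay 12 other microRNA hairpins on the same strand, all at 0, such as MIR222 beside MIR221 and MIR181D beside MIR181C. These zeros are those of a poly(A) library at this depth and say nothing of the mature microRNAs.

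Detection went with hairpin length. Among the names placed by GENCODE, 2 of 397 hairpins under 80 bases had signal (0.504%), and 47 of 657 of 80 bases or more (7.15%). In classes, the counts were 2 of 210 under 73 bases, 0 of 187 from 73 to 79, 14 of 328 from 80 to 89, 15 of 197 from 90 to 99, 8 of 49 from 100 to 109, and 10 of 83 from 110. The median length was 97 bases with signal (n = 49) and 83 without (n = 1005), and the median GC content was 56.9% and 50.5%. The part of length and GC in the presence of signal was not tested.

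Detection also went with the place of the hairpin. At least 50% of the hairpin lay in an exon of another gene on the same strand for 29 of the 54 genes, while 18 lay in an intron, 4 only on the strand opposite to a gene and 2 in neither, and MIR612 was not placed. MIR663A, which is among the 29, was judged on the 22 bases of its mature sequence, since only these were placed. Among all names placed by GENCODE, 25 of 156 in exons had signal (16.0%), 18 of 631 in introns (2.85%), 4 of 123 on the opposite strand (3.25%) and 2 of 144 in neither (1.39%). With hairpins of at least 80 bases alone, the shares were 23.3% in exons and 4.15% in introns. The hosts of genes with signal were at higher levels. The median host FPKM in mock was 29.1 for exonic genes with signal (n = 22) and 19.1 for those without (n = 96), and for intronic genes it was 24.1 (n = 13) and 4.57 (n = 468). Values of whole reads were found in 30 of 50 exonic and 19 of 23 intronic values. Exact copies of the hairpin ends, searched with 75 bases, were found elsewhere in hg19 for 1 of 52 genes, MIR4273.

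**Figure D4:**
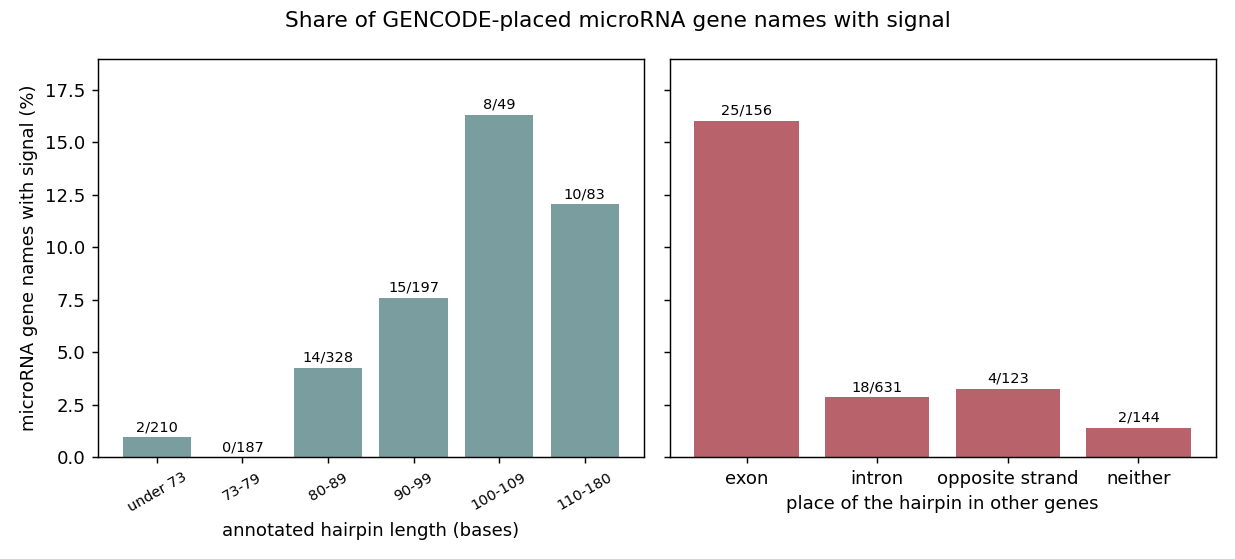
Share of GENCODE-placed microRNA gene names with signal (percent), by annotated hairpin length in bases (left) and by place in other genes (right), with counts above the bars. The share rises from 0 of 187 at 73 to 79 bases to 8 of 49 at 100 to 109 bases, with 10 of 83 above, and is 16.0% in exons against 2.85% in introns.

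The host genes showed little of the spread of the hairpins. Of 36 different hosts listed in the files, 33 had their highest FPKM within 1.5-fold of their lowest over the 3 libraries. MIR7-1, in an exon of the RNA-binding protein gene HNRNPK, had 1 read in mock, 0 with sgL1ASP #1 and 1 with sgL1ASP #3, while HNRNPK had FPKM 159, 152 and 154. MIR3940, in an intron of KHSRP, a protein that binds microRNA precursors, had 1 read in mock alone. KHSRP had 146, 141 and 147. MIR210HG, the host of MIR210, had FPKM 3.86 in mock, 6.58 with sgL1ASP #1 and 4.48 with sgL1ASP #3, while the single MIR210 read was in mock. It was 1 of the 3 hosts not within 1.5-fold, and the others were near 0. NANOS3, the host of MIR181C, had FPKM 0.761, 0.154 and 0.183 in mock, sgL1ASP #1 and sgL1ASP #3. DNM3OS, the host of MIR214, had 0, 0.0160 and 0.0189, so it had no ratio to mock.

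Of 28 genes that make and use microRNAs, 0 passed 1.5-fold in any comparison. Of all genes, 2.08% to 2.32% passed it in each direction of a comparison, so 0 of 28 is near that share. Of the 28, 27 had FPKM of at least 1 in every library. DROSHA had FPKM 21.4 in mock, 22.3 with sgL1ASP #1 and 21.1 with sgL1ASP #3, and its partner DGCR8 had 25.5, 25.9 and 23.5. DICER1 had 13.0, 12.9 and 13.0. AGO2 (listed as EIF2C2), the Argonaute that cleaves targets, had 14.0, 15.6 and 14.2. LIN28B, which blocks let-7 processing, had 13.4, 13.6 and 13.8, while LIN28A was at 0.0250, 0 and 0.0301. The log2 ratios to mock ran from -0.18 (SRSF3) to 0.27 (AGO3) with sgL1ASP #1 over 27 genes, and from -0.21 (TUT7) to 0.27 (LIN28A, a gene near 0) with sgL1ASP #3 over 28 genes. Of 15 host genes named for microRNAs, 6 had FPKM of at least 1 in every library. Some of these hosts passed 1.5-fold. With sgL1ASP #1, 2 of 11 with values were above mock and 3 below, and with sgL1ASP #3, 0 of 10 were above and 4 below. Of all genes with FPKM of at least 1 in any library, 2.11% were above and 2.08% below with sgL1ASP #1. With sgL1ASP #3 these shares were 2.20% and 2.32%. Among the hosts past 1.5-fold, MIR7-3HG, MIR31HG, MIRLET7BHG and MIR143HG were under FPKM 1 in every library. MIR181A2HG had FPKM 5.35 in mock, 2.36 with sgL1ASP #1 and 3.36 with sgL1ASP #3.

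**Figure D5:**
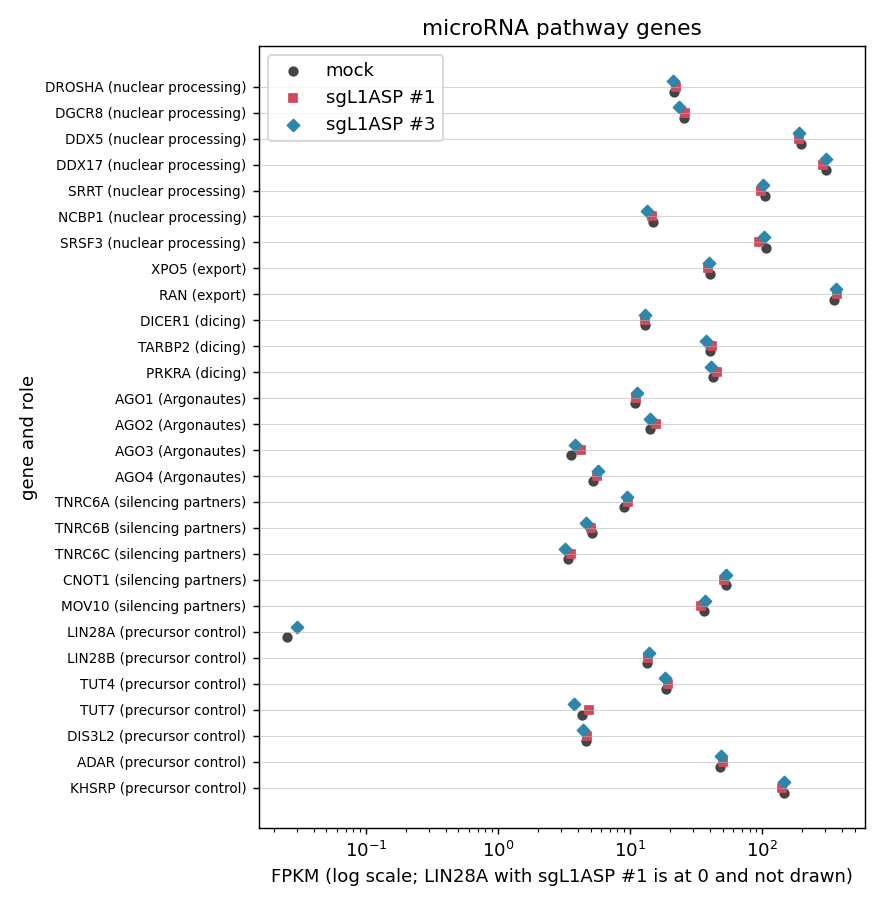
FPKM (log scale) of the 28 microRNA pathway genes in mock (circles), sgL1ASP #1 (squares) and sgL1ASP #3 (diamonds), with 1 library per condition. The symbols of each gene lie close together, as for DICER1 at 12.9 to 13.0, and LIN28A is the only gene under 1.

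The markers listed for 293T were above 0 in all libraries, at unlike levels. Vimentin (VIM) was at FPKM 807 to 904, KRT8 at 66.9 to 73.2, KRT18 at 59.3 to 60.6, NEFL at 9.08 to 9.61 and NEFM at 5.77 to 6.02. LHX1 was at 1.48 to 1.76 and the kidney gene PAX2 at 0.522 to 0.658, both under COL1A1, a marker of other cells. Of the 5 markers of other cell types, COL1A1 of fibroblasts was at 1.99 to 2.55, ALB of liver at 0.284 to 0.467, MYOD1 of muscle at 0.357 to 0.603, PECAM1 of endothelium at 0 to 0.135 and the leukocyte marker PTPRC at 0 in all libraries. Their part in the results was not tested. In bulk RNA, fewer cells of a kind and less RNA per cell cannot be told apart.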

How the data were processed

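Poly(A) RNA of 293T cells with dCas9-VP64 was measured by RNA-seq, and each of the 3 libraries (mock, sgL1ASP #1, sgL1ASP #3) was assigned from the labels. The authors prepared stranded mRNA libraries, sequenced 75-base single-end reads, mapped them to hg19 with TopHat2 2.0.13, Bowtie2 2.2.3 and SAMtools 0.1.19, and deposited FPKM per gene from Cuffdiff (Cufflinks 2.2.1). The gene annotation and the scaling between libraries are not given in the sources used here. All libraries list 23284 gene names.

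The microRNA genes, the other lists and the tests of 1.5-fold were chosen with earlier results of these data known. Ratios used FPKM as deposited, with no pseudocount, over values above 0. The named genes are the 10 with the highest mean FPKM, the 3 largest and smallest ratios of each comparison, those past 1.5-fold with both guides, the 5 highest with a listed 0, MIR1182 and MIR762 for being in the study's list of upregulated genes, the families, the highest in each class of place, and those just inside the FPKM threshold. Further genes were named after their values were seen.

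Positions are from GENCODE 44 lifted to GRCh37 (hg19), and MIR940, MIR600, MIR1248 and MIR663A were placed by unique matches of RefSeq sequences to that genome. For MIR663A the matched sequence was the mature one and not the hairpin. FPKM was divided by the worth of 1 read at the length of the gene, which gives whole and fractional reads, with the shortest fragment (73 bases) set on 113 values of 57 other short RNA genes, of which 25 agreed within 0.25% at that length, and with the relative worth from genes at low FPKM, which 348 of 1476 shared with sgL1ASP #1 and 330 of 1404 with sgL1ASP #3. Intervals are exact at 95% and cover counting error only. In simulated libraries, a 3-fold rise with sgL1ASP #1 was called in 119 of 119 genes whose mean FPKM reached 10. All of these were simulated at the length of a long transcript, with many reads at that FPKM. This cannot show what is called at the few reads of a hairpin. A shortest fragment of 73 bases was recovered from 150 short genes simulated with whole reads alone. These values were made with the same length formula that was then searched. The recovery therefore cannot show that the formula holds for these libraries. The alternatives were a 2-fold threshold, pseudocounts, filters, counted zeros and other scalings. Python 3.11.15, NumPy 2.4.6, pandas 2.3.3, SciPy 1.17.1, pysam 0.24.0 and matplotlib 3.10.9 were used.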

Additional observations from a re-analysis of the deposited data

Results flagged for a closer look

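MIR922 moved in opposite directions with the guides, its FPKM being 4.70-fold that of mock (4.695) with sgL1ASP #1 and 0.473-fold (0.4729) with sgL1ASP #3. The difference was not tested, since no condition was replicated, and all 3 values were worth less than 1 read.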

How the results depend on the processing

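Of the values recomputed for the main results, 65 stayed within 1.5 times or 1.5-fold of the value reported and 19 did not. The number of genes past 1.5-fold turned on the zeros. With pseudocounts of 0.1 or 1, or with zeros counted, it went from 8 to 39 for sgL1ASP #1 against mock (22 above and 17 below), from 6 to 30 for sgL1ASP #3 against mock (13 above and 17 below), from 5 to 40 between the guides (23 above and 17 below), and from 2 to 14 for both guides (4 above and 10 below). With FPKM at least 1 in every library it was 5 for sgL1ASP #1 against mock, and with a 2-fold threshold it was 3 between the guides. The shares of all genes under these settings were not taken, so the counts cannot be read as particular to the microRNA genes. When all 3 values had to reach 1 the number of microRNA genes was 9, and that of genes with signal in the families followed went from 3 to 1. With the shortest fragment at 72, 74 or 75 bases, values at a whole number of reads numbered 5, 5 and 4, as against 58. The 1.5-fold counts kept within 1.5 times under both scalings, although a sum of 1000000 moved the median log2 ratio of all genes to -0.09 with sgL1ASP #1 and -0.12 with sgL1ASP #3, and that of the microRNA genes with sgL1ASP #1 from 0.09 to -0.00. Of 292 values for single genes, 292 stayed within 1.5-fold. This was largely fixed in advance, since scalings moved all genes alike, pseudocounts were small beside the FPKM, and pairs with a listed 0 were left out. No paired analysis was possible because 1 library stands for each condition. Leaving out a library was not possible either. At this depth 34 of 52 genes had at most 1 read in every library.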
